A study of Zea mays with 12 samples.

Results

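Mid S domains are the stretches of the maize genome to which the deposited replication timing map gives a class with mid S in its name. They were found by taking each segment classed ESMS, MS, MSLS or ESMSLS and joining those that touch, which turned 15488 of the 20613 segments of the map into 5104 domains. ES, MS and LS were taken to mean the early, mid and late parts of S phase, and the compound names as sequence labelled in neighbouring stages. The domains were chosen by their class names, so their number, length, spacing and internal make-up are given as a description without a test. Only gene content and position, which played no part in the choice of domains, were tested. Where tests compare kinds of domain, the kinds are named from the flanking classes of the same map.

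The map came from Repli-seq, a method that labels DNA as it is copied: nuclei are sorted by stage of S phase, and labelled DNA from every stage is sequenced and set against unreplicated G1 DNA. All groups were nuclei from the terminal 1 mm of the root tips of seedlings of the maize inbred line B73, grown for 3 days at 28 °C and given 25 µM of the thymidine analogue EdU for 20 min, followed by 100 µM thymidine. The mid S group had 3 replicate libraries of DNA immunoprecipitated with an antibody to the dye on EdU, and the G1 reference had 3 libraries without immunoprecipitation. Early and late S had been sampled in the same way, which made 12 libraries in 4 groups, and no mutant or drug-treated plants were included. The root tip holds several cell types, so the map is an average over them.

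The values at hand were 1 segmentation in windows of 10 kb, with no column per library, no read count and no ratio to G1. The depth behind a domain is therefore unknown, and the spread of the libraries cannot be given. Each SD below is taken over the 10 chromosomes. These are pieces of a single genome rather than replicates. A p-value says only how consistent a difference was, in sign and size, over the chromosomes. Coordinates are those of the deposited map, with a build that was not given in the sources used here. Genes were placed by the midpoint of their RefSeq record, and no gene coordinate is printed.

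Plant chromosomes replicate from many origins that fire at different times of S phase. Gene-rich, open chromatin tends to replicate early, and compact chromatin rich in repeats tends to replicate late. Mid S replication falls between these extremes.

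Mid S domains covered 1081.27 Mb, or 51.6% of the 2095.27 Mb with a class. The share was similar from chromosome to chromosome, at 51.6% ± 3.09 (SD, n = 10), with the lowest value of 46.9% on chromosome 6 and the highest of 56.0% on chromosome 8. There were 24.3 domains per 10 Mb ± 0.865 (SD, n = 10). MS made up 64.5% of the mid S sequence, MSLS 18.4% and ESMS 17.1%. ESMSLS, the class that spans all stages, had 3 segments with 40 kb in all.

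Most domains were short, and a small number of long ones held a large part of the sequence. The median length was 140 kb, with quartiles at 80 and 270 kb and a range from 10 to 2090 kb. By sequence the middle lay higher, since domains of 320 kb or more held at least 50% of mid S sequence. The 443 domains of at least 500 kb, 8.68% of all, held 29.0% of the sequence, and the 44 of at least 1 Mb held 4.97%. At the other end, 47 domains were a single 10 kb window. The chromosome medians ran from 130 to 160 kb.

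What lay on either side divided the domains into 3 main kinds. Domains with ES on both sides, called ES-flanked below, were the most common, at 2054 domains (40.2%) and 451.64 Mb. Domains with LS on both sides, called LS-flanked, numbered 1184 (23.2%) and held 207.05 Mb. Domains with ES on one side and LS on the other, called transition domains, numbered 968 (19.0%) and held 232.82 Mb. The remaining 898 touched unclassified sequence or a chromosome end on at least one side, and 2 of these had the rare class ESLS on the other. Medians were 150 kb for ES-flanked, 160 kb for transition and 120 kb for LS-flanked domains.

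**Figure D1:**
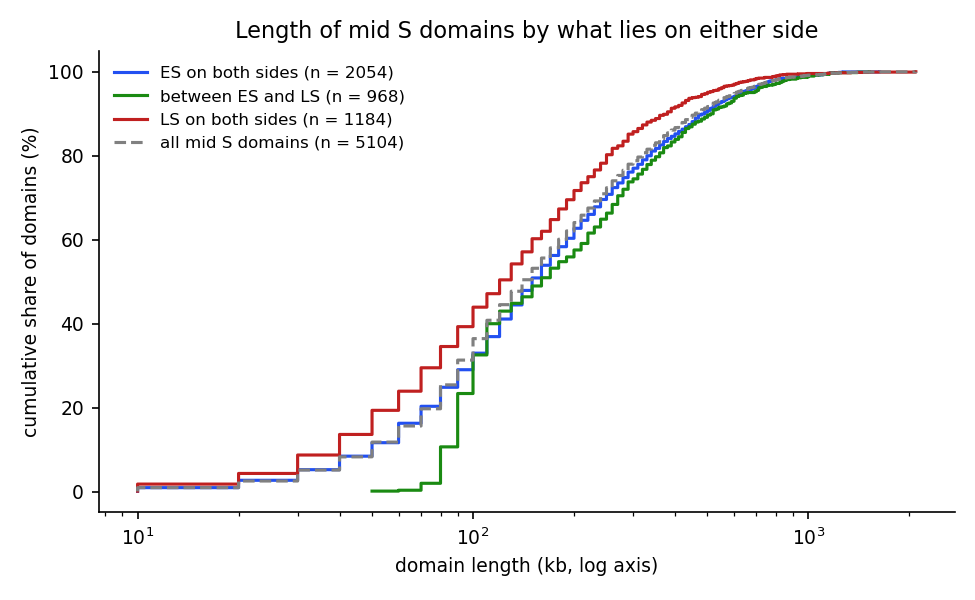
Cumulative share of domains (%) against domain length (kb, log axis) for ES-flanked, transition, LS-flanked and all mid S domains. The LS-flanked curve lies highest below about 1 Mb, with a median of 120 kb against 150 kb for ES-flanked domains, and no transition domain is shorter than 50 kb.

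The classes inside a domain followed its surroundings. ES-flanked domains were 27.0% ESMS, 68.2% MS and 4.76% MSLS. LS-flanked domains were 4.29% ESMS, 47.3% MS and 48.4% MSLS, and transition domains lay between the other kinds at 10.9%, 65.7% and 23.4%. At the edges, ESMS was the class next to ES in 89.4% of 5703 edges, and MS in 604. Next to LS, MSLS stood at 99.1% of 3541 edges and MS at 31. Because a compound class stands for neighbouring stages, such an order follows in part from the class scheme. Edges at unclassified sequence were different, with MS at 90.8% of 950.

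ES-flanked domains usually reached MS and seldom went later. Of the 2054, 356 (17.3%) held only ESMS and had a median of 50 kb, 1489 (72.5%) went to MS at a median of 160 kb, and 209 (10.2%) held MSLS at a median of 500 kb. The run ESMS, MS, ESMS alone accounted for 948 of them. LS-flanked domains often stopped at the first step: 564 of 1184 (47.6%) held only MSLS with a median of 60 kb. A further 440 (37.2%) reached MS at 180 kb, and 179 (15.1%) reached ESMS at 320 kb. In both kinds, domains whose classes went further from those of their flanks were longer by their medians. Reaching a further class usually took more segments, so this order of lengths follows in part from the class scheme.

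Transition domains were mostly simple ramps. In 707 of 968 (73.04%) the classes never turned back on the way from ES to LS, and the median length of these ramps was 110 kb, with quartiles at 90 and 190 kb and a range from 50 to 820 kb. The 605 ramps made of exactly ESMS, MS and MSLS had median layers of 10, 70 and 30 kb. Their ESMS layer was thinner than their MSLS layer. The median ESMS layer is a single window of the 10 kb grid, and the class thresholds are not known. How far the difference rests on these was not tested. MSLS was longer than ESMS in 480, equal in 91 and shorter in 34, and the mean difference was 21.2 kb ± 4.14 (SD, n = 10 chromosomes), with MSLS longer on 10 of 10. Over all 968 transition domains, the ES side faced the nearer chromosome end in 478 (49.4%). Unless a gap intervenes, a change from ES to LS is followed along the chromosome by a change back. A near-even split therefore follows largely from the class scheme and says nothing of a preferred direction.

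Some domains were built of many segments. The most segmented held 17, and the most changes of direction within one was 13. The fewest changes possible for their kind were found in 91.7% of LS-flanked, 81.7% of ES-flanked and 73.04% of transition domains.

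**Figure D2:**
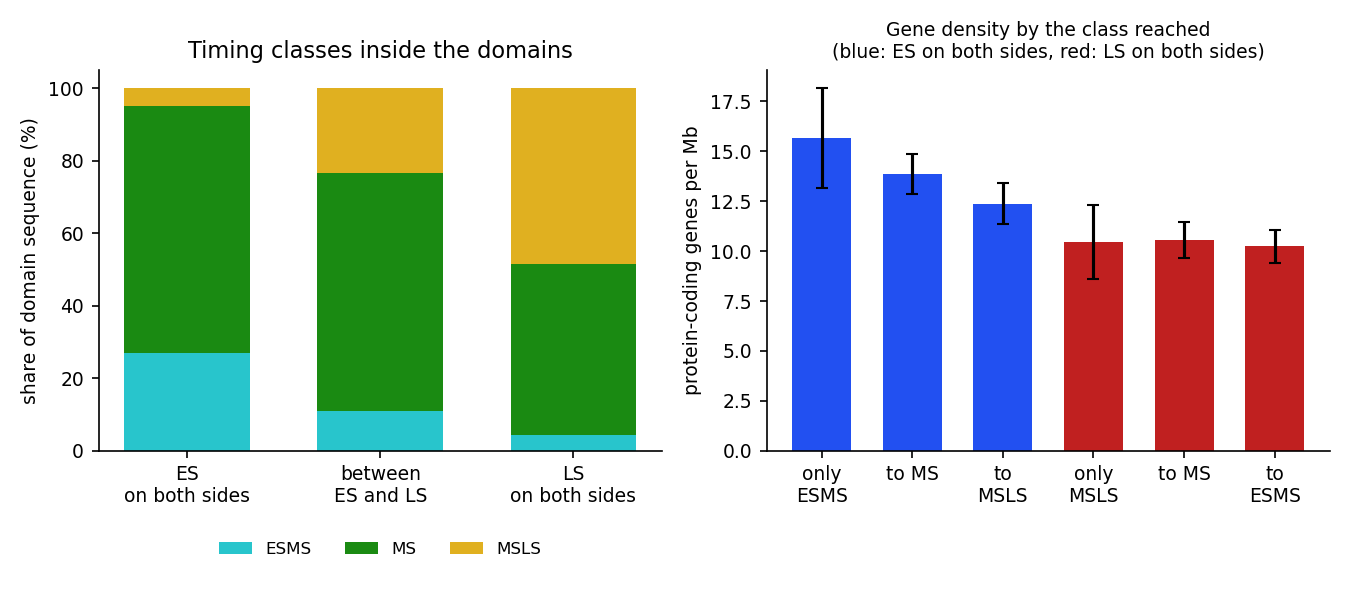
Left, share of domain sequence (%) in ESMS, MS and MSLS for each kind of domain. Right, protein-coding genes per Mb by the class furthest from the flanks that a domain reaches, with bars for the mean and SD over 10 chromosomes. MSLS rises from 4.76% to 48.4% across the kinds, and gene density lies between 10.2 and 15.7 per Mb.

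The longest mid S domain lay on chromosome 8 from 64500001 to 66590000 (2.09 Mb). It was LS-flanked, had 1800 kb of MS and 22 protein-coding genes, and its first named genes were the transfer RNA genes TRNAN-AUU, TRNAK-CUU and TRNAF-GAA. The next was an ES-flanked domain on chromosome 1 from 80570001 to 82200000 (1.63 Mb, 26 protein-coding genes), built of 15 segments with 490 kb of ESMS and no MSLS. Another, on chromosome 8 from 101260001 to 102800000 (1.54 Mb, 17 genes), had LS on one side and unclassified sequence on the other.

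Among ES-flanked domains the next longest were on chromosome 9 from 125020001 to 126290000 (1.27 Mb, 20 genes) and on chromosome 6 from 102880001 to 104140000 (1.26 Mb). The latter, with the microRNA gene MIR167h, held 30 protein-coding genes, the most of any mid S domain, or 23.8 per Mb. The next most gene-rich was the 1.63 Mb domain of chromosome 1, and a transition domain on chromosome 1 from 188050001 to 189200000 (1.15 Mb) also held 26. The longest transition domain, on chromosome 5 from 154660001 to 156180000 (1.52 Mb, 22 genes), has as its first named gene COAC2. It was followed by domains on chromosome 4 from 150580001 to 151980000 (1.4 Mb, 15 genes, with the transfer RNA genes TRNAF-GAA, TRNAT-UGU and TRNAL-AAG) and on chromosome 9 from 105870001 to 107100000 (1.23 Mb, 17 genes). After the 2.09 Mb domain, the longest LS-flanked domains were on chromosome 7 from 28150001 to 29670000 (1.52 Mb, 18 genes, with TRNAS-CGA) and on chromosome 3 from 118330001 to 119670000 (1.34 Mb, 11 genes).

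Many mid S domains had no protein-coding gene at all. There were 1237 (24.2%). The longest lay on chromosome 4 from 26000001 to 26400000 (400 kb), on chromosome 2 from 211960001 to 212310000 (350 kb) and on chromosome 6 from 31540001 to 31870000 (330 kb). Those of chromosomes 4 and 2 were ES-flanked, and that of chromosome 6 was a transition domain. Of domains confined to one mixed class, 48.0% of the ES-flanked ones with only ESMS and 46.6% of the LS-flanked ones with only MSLS had no protein-coding gene. Both groups were short, with median lengths of 50 and 60 kb, and held 15.7 and 10.4 protein-coding genes per Mb (means over 10 chromosomes). All 179 LS-flanked domains that reached ESMS had at least one, at a median length of 320 kb and a mean of 10.2 per Mb.

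Mid S domains alternated with early or late sequence at a similar scale on every chromosome. The 5094 intervals between neighbouring domains had a median of 110 kb and a range from 10 to 5760 kb, and the median distance from one domain centre to the next was 340 kb. The chromosomes differed little in it, with a mean of chromosome medians of 344 kb ± 8.995 (SD, n = 10), from 327.5 to 355 kb. Of the intervals 2566 (50.4%) were wholly ES, 1648 (32.4%) wholly LS, 190 unclassified and 690 of more than one content. Intervals of ES had a median of 110 kb and those of LS 130 kb.

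Long stretches of one pattern occurred. The longest run in which ES alone separated the domains held 22 of them on chromosome 2 from 28290001 to 36940000 (8.65 Mb). The longest with LS alone held 19 on chromosome 1 from 109510001 to 117620000 (8.11 Mb). The longest interval with no mid S domain lay on chromosome 6 from 172000001 to 177760000, where 5760 kb were ES with some unclassified sequence. The next, of 5550 and 5530 kb, lay near the starts of chromosomes 5 and 2 and were also ES with unclassified sequence. The longest of LS alone was 4090 kb on chromosome 7 from 63390001 to 67480000.

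Most gaps in the map touched mid S domains, but most segments of the map (15488 of 20613) were mid S too. Of 962 unclassified gaps, 190 had mid S on both sides, 145 of them MS on both, and 570 had it on one side only. ES stood on both sides of 97 and LS on both sides of 96. The gaps inside mid S were short, with a median of 20 kb, and 161 of the 190 were 50 kb or less. Some neighbouring domains counted apart here may thus be one, and joining across gaps up to 50 kb left 4943 domains.

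Mid S domains took a larger share of the chromosome middles than of the ends. In the outer 20% at each end they covered 44.4% ± 7.17 of classified sequence and in the middle 60% they covered 56.3% ± 3.84 (SD, n = 10). The difference of -12.0 percentage points ± 9.06 was negative on 9 of 10 chromosomes, with an exact sign-flip permutation p of 0.00977 and 0.0117 after Benjamini-Hochberg adjustment over the 12 tests made. Chromosome 4 was the exception, with 60.5% at the ends and 51.6% in the middle. With the outer 30% at each end the difference was -5.13 points and did not pass (exact sign-flip test, adjusted p = 0.115). With MS segments taken alone it was -5.81 points and also did not pass (adjusted p = 0.0511, same exact test).

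The profile along the chromosome had 2 shoulders with a dip between them. Averaged over the chromosomes, the mid S share was 34.1% in the first 5% of the length, 64.7% between 15% and 20%, 40.1% between 35% and 40%, 68.3% between 60% and 65% and 21.7% in the last 5%. At the dip the chromosomes ran from 5.81% to 79.4%, so it was not common to all of them. These bins were not tested.

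The kinds of domain had different places. ES-flanked domains held 58.7% ± 13.8 of mid S sequence in the outer part and 32.1% ± 9.17 in the middle, a difference of 26.6 points ± 14.3 (SD, n = 10). LS-flanked domains held 6.42% ± 5.54 of it in the outer part and 26.5% ± 6.29 in the middle, a difference of -20.03 points ± 8.25. Both differences had one sign on 10 of 10 chromosomes (exact two-sided sign-flip test, p = 0.00195 each, the smallest possible with 10 chromosomes, adjusted p = 0.00293). Chromosome 6 had the smallest of both, at 4.97 and -2.51 points. ES and LS themselves lie unevenly in this map, and the kinds are named from them, so these differences are not independent of where ES and LS lie.

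**Figure D3:**
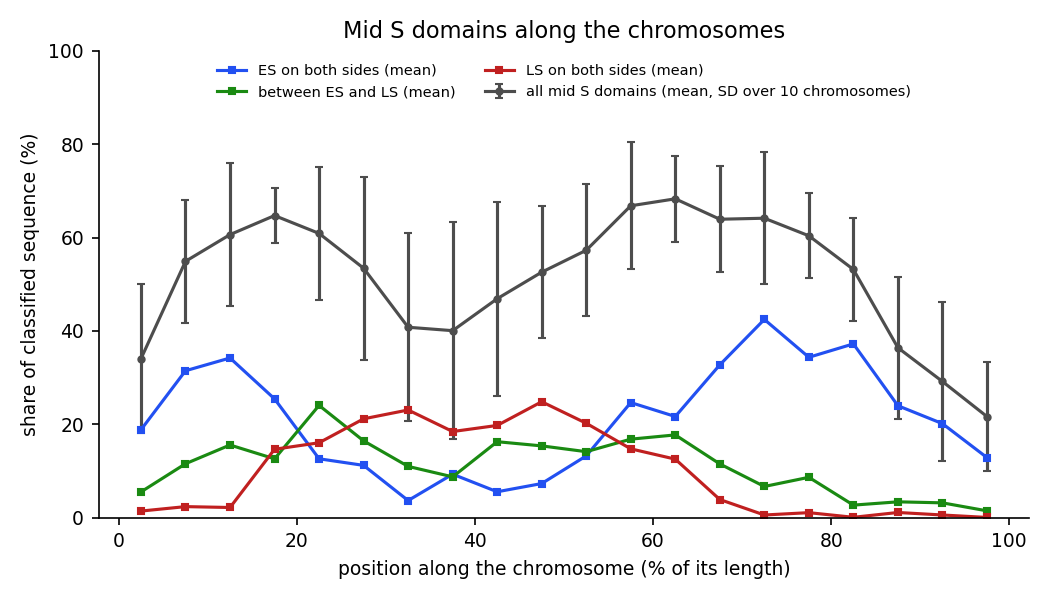
Share of classified sequence (%) in mid S domains against position along the chromosome (% of its length, in 20 bins), as the mean with SD over 10 chromosomes, with means for each kind of domain. ES-flanked domains peak at 42.5% between 70% and 75% of the length and LS-flanked domains at 24.9% between 45% and 50%.

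Both the spacing and the content of the intervals differed with position. The median distance between centres was 355 kb for domains in the outer part and 335 kb in the middle. The chromosome medians of this distance averaged 354.5 kb ± 32.9 and 339 kb ± 9.29 (SD over chromosomes). The median interval between neighbouring domains was 130 kb in the outer part and 100 kb in the middle. These values were not tested. Intervals were wholly ES for 67.2% in the outer part and 40.6% in the middle, and wholly LS for 11.4% and 44.6%. Domains of at least 1 Mb were spread much like the rest, as 29 of the 44 lay in the middle 60% (65.9%) against 63.0% of all domains.

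Mid S domains held 13357 of the 33146 protein-coding genes with a class, or 40.3%, against 54.8% in ES and 4.86% in LS. Their gene density was 12.3 per Mb ± 0.605 (SD, n = 10), well below the 31.3 ± 1.73 of ES and above the 3.69 ± 0.593 of LS. The difference from ES was -18.9 genes per Mb ± 2.05 and that from LS 8.65 ± 0.869, each with one sign on 10 of 10 chromosomes (exact two-sided sign-flip test, adjusted p = 0.00293 each). No chromosome's mid S density overlapped the range of either, as it ran from 11.1 to 13.2, ES from 28.8 to 33.7 and LS from 2.79 to 4.74.

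Genes in mid S domains were shorter than in ES and longer than in LS. The chromosome medians of protein-coding gene length averaged 2795 bp ± 109 (SD, n = 10). The difference from ES was -545 bp ± 141 and the difference from LS was 868 bp ± 270, on 10 of 10 chromosomes each (exact two-sided sign-flip test, adjusted p = 0.00293). Long noncoding RNA genes made up 13.8% ± 1.13 of the genes in mid S domains, above the 8.35% ± 1.04 of ES on 10 of 10 chromosomes, by 5.41 points ± 1.31 (adjusted p = 0.00293, same exact test). Their share was below the 21.6% ± 4.61 of LS on 9 of 10, by a difference of -7.80 points ± 5.27 (exact sign-flip test, adjusted p = 0.00521). Chromosome 6 was the exception, with 15.2% in mid S domains and 12.5% in LS. In the outer part alone the difference from LS was -4.65 points and did not pass (exact sign-flip test, adjusted p = 0.298). These shares are of genes of every kind, and ribosomal RNA genes numbered 173 in LS and 1 in mid S domains.

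Taken whole, ES-flanked domains were richer in genes than LS-flanked ones, and the kinds also differed in class make-up. ES-flanked domains held 13.6 protein-coding genes per Mb ± 0.893 and LS-flanked domains 10.5 ± 0.593, a difference of 3.05 ± 1.08 (SD, n = 10) with one sign on 10 of 10 chromosomes (exact two-sided sign-flip test, adjusted p = 0.00293). Transition domains had 10.8 ± 0.864. MS segments held 11.4 genes per Mb ± 0.912 in ES-flanked and 12.1 ± 0.930 in LS-flanked domains, and this difference of -0.74 ± 1.41 was not past the threshold (6 of 10 chromosomes, exact sign-flip p = 0.143). In the middle 60% of the chromosomes the MS segments of ES-flanked domains were the poorer, by a difference of -2.10 (adjusted p = 0.00469), and in the outer 20% the sign turned, at 1.84 (adjusted p = 0.298, both by the exact sign-flip test). Counting MS segments alone as domains also turned the comparison of the kinds, to -2.16 (exact sign-flip test, adjusted p = 0.00260).

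ESMS segments held 20.5 genes per Mb ± 1.12 in ES-flanked, 21.03 ± 3.95 in transition and 22.1 ± 5.59 in LS-flanked domains (SD, n = 10). MSLS segments held 6.50 ± 2.07, 6.02 ± 0.833 and 7.82 ± 1.16 in the same order. LS-flanked domains exceeded transition domains in MSLS by 1.80 ± 1.60, on 8 of 10 chromosomes, and in MS by 1.34 ± 1.61, also on 8 of 10. In MSLS they exceeded ES-flanked domains by 1.33 ± 2.02, on 7 of 10. In ESMS they did so by 1.66 ± 5.62, on 5 of 10. Over whole chromosomes, no class had a higher mean in ES-flanked than in LS-flanked domains. The part of class make-up in the difference between whole domains was not tested. These values are a description chosen with the densities in view, and only the MS comparison above was tested.

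**Figure D4:**
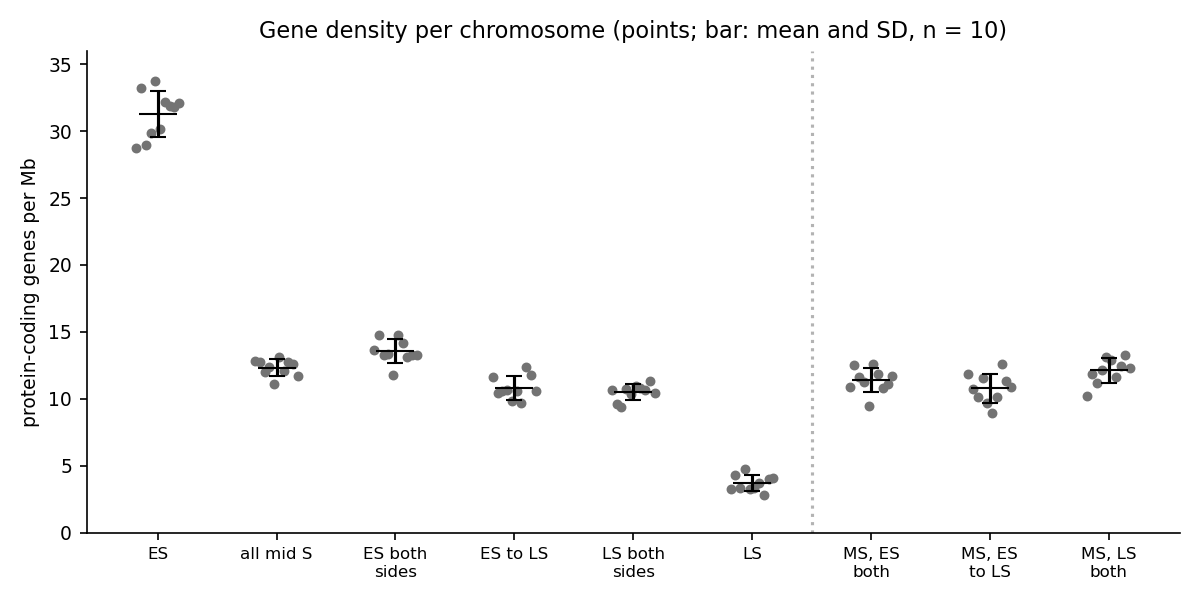
Protein-coding genes per Mb for each of 10 chromosomes (points) with the mean and SD, for ES, all mid S domains, the 3 kinds of domain, LS and, right of the dotted line, MS segments within each kind. The points of mid S domains lie between 11.1 and 13.2 per Mb, apart from those of ES and LS, and the MS groups overlap.

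LS-flanked domains had the longer genes. The chromosome medians of protein-coding gene length averaged 3203 bp ± 206 in LS-flanked and 2663 bp ± 125 in ES-flanked domains, higher on 10 of 10 chromosomes by 540 bp ± 273 (SD, n = 10). In MS segments alone the medians were 3466 bp ± 410 and 2394 bp ± 111. In the middle 60% of the chromosomes the difference was 465 bp ± 277, again on 10 of 10. In the outer 20% it was 61.1 bp ± 723 and positive on 6 of the 9 chromosomes with such genes. This comparison was chosen after its values were seen and carries no test.

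Gene density changed across the edges of the domains. In ES it fell toward a mid S domain, from 29.6 per Mb ± 1.59 between 20 and 50 kb before the edge to 21.9 ± 1.42 in the last 10 kb (SD, n = 10). Inside ES-flanked domains it went on from 18.1 ± 1.93 in the first 10 kb to 11.9 ± 0.758 between 20 and 50 kb, lower on 10 of 10 chromosomes. Further in, it was 14.8 ± 2.10 between 100 and 200 kb, above the value at 20 to 50 kb on 10 of 10.

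The LS side looked different. In the last 10 kb of LS the density was 4.43 per Mb ± 1.23 and in the first 10 kb of LS-flanked domains 5.10 ± 1.44, higher on only 6 of 10 chromosomes. It then rose to 13.7 ± 1.21 between 50 and 100 kb, above the first 10 kb on 10 of 10 (SD, n = 10), and was 11.0 ± 1.77 from 100 to 200 kb. Windows deep inside exist only in the longer domains, so the inner values come from fewer domains than the outer ones. Values in ES and LS were taken beside mid S domains of other kinds as well, so outside and inside rest on unlike sets of edges. The profiles are descriptions without a test.

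Transition domains cut into 5 equal parts from ES to LS held 11.8, 11.3, 11.1, 11.7 and 8.17 genes per Mb. The first 4 parts differed by less than their SDs of 1.14 to 1.84, and the last was below the fourth on 9 of 10 chromosomes, by 3.53 ± 2.37 (SD, n = 10). Split at the middle, the side toward ES held 11.5 genes per Mb ± 1.36 and the side toward LS 10.2 ± 1.06. The difference of 1.37 ± 1.70 had this sign on 8 of 10 chromosomes and passed narrowly (exact two-sided sign-flip p = 0.0391, adjusted p = 0.0426). It was lost on leaving out any 1 chromosome other than 3 or 10, with differences from 1.09 to 1.49 and adjusted p up to 0.0852 by the same exact test over 9 chromosomes. It was also lost in the outer 20% alone (2.98, adjusted p = 0.0938, same exact test) and with MS segments alone as domains (0.135, adjusted p = 0.799, same exact test).

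**Figure D5:**
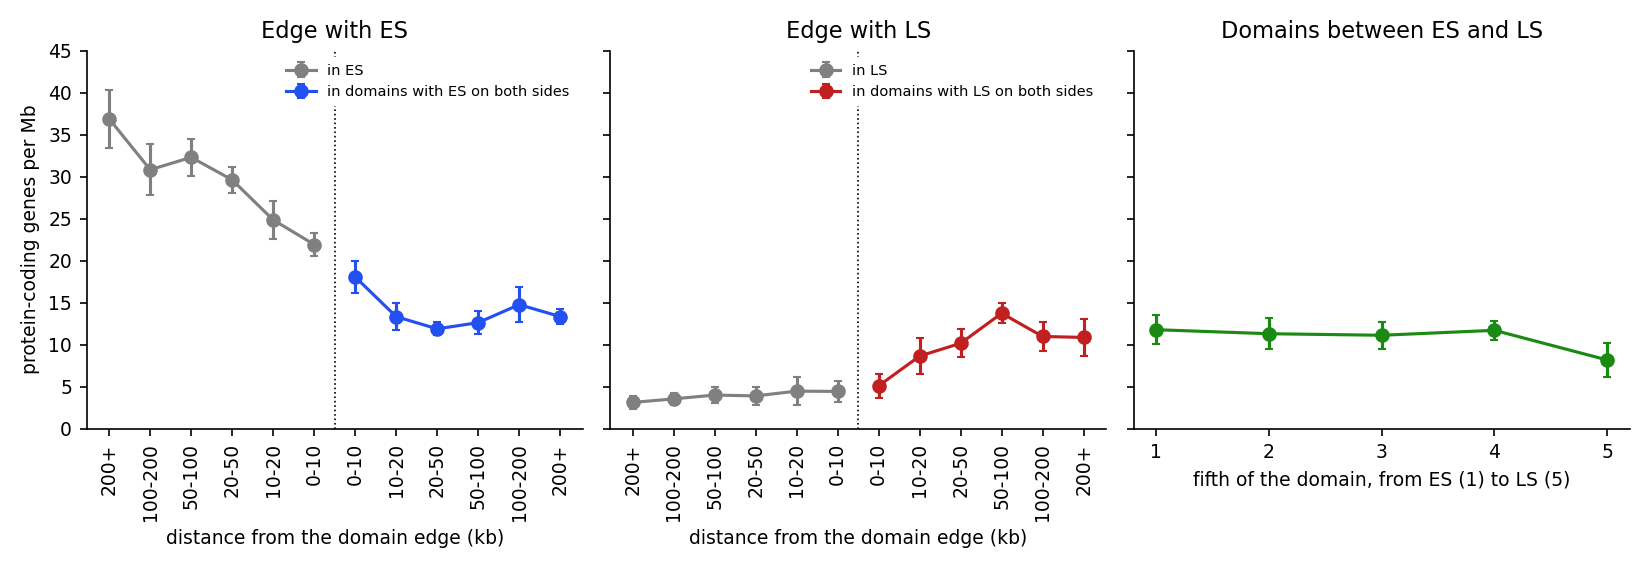
Protein-coding genes per Mb (mean and SD over 10 chromosomes) by distance from the domain edge in kb, and in 5 equal parts of transition domains (right). The left panel shows ES and the inside of ES-flanked domains, the middle panel LS and the inside of LS-flanked domains. The ES and LS values were not limited to the sides of these kinds. Dotted lines mark the edge; the first 10 kb inside hold 18.1 genes per Mb next to ES and 5.10 next to LS.

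Named genes show what these domains contain. Lists of genes were matched by symbol and are given as counts beside the 40.3% of all protein-coding genes found in mid S domains. Of mid S protein-coding genes, 45.6% were in ES-flanked, 18.8% in transition and 16.2% in LS-flanked domains. Counts by kind are to be read beside these shares. A list holds only the genes whose symbol matched and may leave out other members of its family. Lists are small and many members are neighbours on the chromosome, so a count is no test. Distances of genes from an edge are counted in whole 10 kb windows.

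The zein genes, which encode the seed storage proteins of the endosperm, lay in mid S domains in 28 of 28 cases. They fell in 11 domains. The largest group, 7 genes of the z1C1 family from z1C1_12 to z1C1_20, was in an ES-flanked domain of 240 kb on chromosome 4 from 6040001 to 6280000. A further 6 of the z1A1 family, z1A1_2 to z1A1_7, lay in the domain from 6510001 to 6650000 (140 kb), with ES on one side and unclassified sequence on the other. z1A2_1 to z1A2_3 (chromosome 4 from 31820001 to 32240000) and z1B_1 to z1B_6, 3 genes (chromosome 7 from 19190001 to 19440000), were in transition domains. z1D_2 and z1D_4 shared an ES-flanked domain of 960 kb on chromosome 1.

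The zeins outside these families were split over the kinds of domain. The gamma zeins gz50 and gz27 shared an ES-flanked domain of 240 kb on chromosome 7 from 125200001 to 125440000, where gz27 was in ESMS. z1C2, gz16 and dzs18 were also in ES-flanked domains, and bz15 (chromosome 6 from 52320001 to 52510000) and dzs10 (chromosome 9 from 49710001 to 49950000) in LS-flanked ones. By kind, 14 genes were in ES-flanked, 6 in transition and 2 in LS-flanked domains. Of all mid S protein-coding genes these kinds held 45.6%, 18.8% and 16.2%. Many zeins are near-identical tandem copies, and the handling of reads that map to several places was not given in the sources used here. Both zein regulators of the list were in ES-flanked domains: pbf1, the prolamin-box binding factor, in ESMS at the ES edge, and o2, the bZIP activator opaque2, in MS 150 kb from ES.

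MADS-box factors, many of which specify flower organs, had 22 of 32 members (68.8%) in 21 mid S domains. The first by position were MADS7, in ESMS next to ES in a domain of 240 kb on chromosome 1, and zmm24, zmm27, zap1 and zag2, all in MS at 30 to 120 kb from ES. In LS-flanked domains were 2 of the 22, MADS47 and MADS71, beside 16.2% of all mid S protein-coding genes. Homeobox factors had 20 of 45 (44.4%), the first HB45, HB127, HB84, HB110 and kn1. Transcription factors of the bHLH, MYB, WRKY, bZIP, ERF and NAC families had 85 of 222 (38.3%), from bHLH84, MYBR43, MYBR32, MYB100 and MYB59 on. MYB100 lay 10 kb inside an LS-flanked domain of 480 kb. Of these lists only the last was below the 40.3% of all genes.

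Lists of basic cell functions had smaller shares in mid S domains than the 40.3% of all genes. This was not particular to them. Terpene synthases (22.2%), endosperm starch and sugar enzymes (35.3%) and auxin genes (36.7%), described below, were also under it. Core histones had 0 of 5, all of which were in ES. Replication proteins had 2 of 10, MCM7 and MCM6, subunits of the replicative helicase. Both were in MS and far from the edges of their domains. MCM7 lay 360 kb from ES and 380 kb from LS in a transition domain of 750 kb on chromosome 1 (150210001 to 150960000). MCM6 lay 250 kb from ES in an ES-flanked domain of 660 kb on chromosome 8 (112800001 to 113460000). Ribosomal proteins had 8 of 32, among them RPS21, rpl17, rps24, rps12, RPL27A, rpl12 and rpp2b. Of these rps24 was in the longest transition domain, 140 kb from its ES edge, and rpp2b was the only one in an LS-flanked domain. DNA methylation and silencing genes had 4 of 15: mop1, an RNA-dependent RNA polymerase, rdr6, dmt101 and met4, with rdr6 in an LS-flanked domain of 240 kb on chromosome 3.

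Metabolic and cell wall genes varied. Cytochrome P450 genes had 8 of 12 in 6 domains: CYP714B3, CYP78A53, BX3, BX4, CYP71Z18, CYP71Z16, CYP88A1 and CYP734A7. BX3 and BX4, which act in a row in benzoxazinoid synthesis, shared an ES-flanked domain of 90 kb on chromosome 4 from 3830001 to 3920000, with BX3 in MS and BX4 in ESMS. CYP71Z18 and CYP71Z16 shared one of 180 kb on chromosome 5 from 33890001 to 34070000. Terpene synthases had 2 of 9, tps26 and tps6. Expansins, which loosen cell walls, and peroxidases had 10 of 23: expB3, PER2, expB6, PER66, EXPB10, expB4, EXPB9, expA3 and 2 genes that carry the name PER1. Aquaporins, the water channels, had 15 of 31, the first TIP3-2, pip2b, SIP1-1, pip2c and PIP1-3. pip2b was in ESMS yet 500 kb from the ES edge of a transition domain of 1000 kb on chromosome 2.

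Starch and sugar enzymes of the endosperm had 6 of 17, and 3 of them, zpu1 (a pullulanase), bt2 (a subunit of ADP-glucose pyrophosphorylase) and du1 (a starch synthase), were in LS-flanked domains. The others were the cell wall invertases INCW2, incw1 and incw3. LS-flanked domains held 16.2% of all mid S protein-coding genes. Auxin transport and response genes had 18 of 49, the first aic1, ARF2, ARF5, aux2 and AUX35. AUX35 lay in the LS-flanked domain of 1.34 Mb on chromosome 3, 210 kb from LS. MicroRNA genes had 73 of 163 (44.8%), the first MIR528a, MIR482, MIR171l, MIR159e and MIR160d. MIR171l and MIR159e shared an ES-flanked domain of 830 kb on chromosome 1 from 251270001 to 252100000, the former in MS and the latter in MSLS, 400 kb from ES.

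Of 45 classical maize genes with a class 19 lay in mid S domains, 14 of them in ES-flanked ones. ES-flanked domains held 45.6% of all mid S protein-coding genes. Several of the classical genes in mid S domains regulate plant form. kn1, the homeobox gene of the shoot meristem, was in ESMS next to ES in a domain of 420 kb on chromosome 1 (277840001 to 278260000). tb1, which limits branching, was in MSLS, 180 kb from ES in a domain of 450 kb (chromosome 1, 272150001 to 272600000). bif2, a kinase of inflorescence development, was in MS 150 kb from ES (chromosome 1, 177770001 to 178100000). ra2 and BA1, of the inflorescence and of axillary meristems, were in MS and in ESMS of domains of 510 and 440 kb on chromosome 3. tga1, which shapes the glume, was in MS 210 kb from ES in a domain of 520 kb on chromosome 4. id1, which acts in the passage to flowering, was in MS of a transition domain of 240 kb, 80 kb from ES and 150 kb from LS.

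The other classical genes were mainly of metabolism. an1, of gibberellin synthesis, was in MS of a domain of 260 kb on chromosome 1. A1, of anthocyanin synthesis, was in ESMS 10 kb from ES in a domain of 90 kb on chromosome 3. y1, a phytoene synthase, gl8, of cuticular wax synthesis, and nrt2, a nitrate transporter, were also in ESMS of ES-flanked domains, and nrt2 was next to the ES edge. fie1, a Polycomb gene of the endosperm, was in MSLS 180 kb from ES. mn1, a cell wall invertase that also appears above as INCW2, was in MSLS of a transition domain of 600 kb, 460 kb from ES and 130 kb from LS. incw1 was in MS 190 kb from ES, and mop1 and o2 are described above. bt2 and pep1, a phosphoenolpyruvate carboxylase, were the members in LS-flanked domains, at 40 and 200 kb from LS in domains of 290 and 580 kb. All of these places are those of root tip cells, and the expression of the genes was not measured.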

How the data were processed

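Root tip nuclei of maize B73 were sorted into G1, early, mid and late S, with 3 libraries each. The submitters' processing notes name Trimmomatic 0.39, SAMtools 1.9 and Bowtie2 2.5.1, without their roles. How the segmentation was made, with which tool, thresholds, build and use of the replicates, was not given in the sources used here. As deposited it holds coordinates and class names, with no counts or ratios.

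Touching mid S segments were joined. Genes came from the RefSeq table of Zm-B73-REFERENCE-NAM-5.0, which gave their names, places, lengths and kinds. The match of its gene counts to ES, tried at offsets up to 200 kb, was best at no offset on 9 of 10 chromosomes and within 10 kb on all 10. This check of the build uses the same link between genes and ES as the density tests, so it is not independent of them. The 12 tests were exact two-sided sign-flip permutations over chromosomes (1024 patterns), adjusted by Benjamini-Hochberg and tested on simulated data. The members, lists and tests were chosen with earlier results of these data known. Named were the 3 longest domains overall and of each kind, the 3 richest in genes and the 3 longest without one, with their first 3 named genes, all classical genes in a domain, and of each list its mid S members up to 10, otherwise the first 5, except 1 gene not reported here. The other zeins, MADS47, MADS71, the longest intervals and runs were chosen after their values were seen. Alternatives changed the classes joined, gaps, short domains, short flanks, gene position, chromosome parts and chromosomes. Scripts used matplotlib 3.10.9, scipy 1.17.1, pandas 2.3.3 and numpy 2.4.6 in Python 3.11.15.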

Additional observations from a re-analysis of the deposited data

How the results depend on the processing

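Of 173 alternative values of the tests 156 kept their direction and their side of the threshold. A further 27 values carry no test. Among these the number of domains ran from 4682 to 5942. The median domain length was 90 kb with MS segments alone, 110 kb without ESMS, 120 kb without MSLS, 150 kb when joined across gaps up to 50 kb or of any length, and 160 kb for domains of 50 kb or more. The mid S share became 33.3% with MS segments alone, 42.8% without ESMS and 42.1% without MSLS, which follows from the classes left out. With MS segments alone, where ESMS and MSLS count as flanks, the ES-flanked minus LS-flanked gene density was -2.16 per Mb, as it was for the MS segment comparison, the difference between the sides of transition domains 0.135 and the outer minus middle share -5.81 points, the latter 2 no longer past the threshold. In the outer 20% alone the MS segment comparison was 1.84, the difference between sides 2.98 (adjusted p = 0.0938) and the long noncoding share against LS -4.65 points (adjusted p = 0.298), by the exact sign-flip test, so both calls were lost there. In the middle 60% alone the MS segment comparison was -2.10, and with the outer 30% at each end the outer minus middle share was -5.13 points, a lost call. The cause of these shifts was not tested.

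Leaving out each chromosome in turn kept 112 of 120 values on their side; the 8 lost were all of the difference between the sides of transition domains, at 1.09 to 1.49, within a full range of 1.09 to 1.75. The ranges were -19.3 to -18.5 genes per Mb against ES, 8.51 to 8.77 against LS, 2.81 to 3.23 for ES-flanked minus LS-flanked domains, -0.89 to -0.42 for MS segments, -14.3 to -10.9 points for the outer minus middle share, 24.2 to 29.0 for the ES-flanked share and -22.0 to -18.9 for the LS-flanked share. No paired analysis was possible because the segmentation has no library columns. Depth is unknown, so nothing here shows how firmly a single domain was called, and a domain edge is known only to the 10 kb grid.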
